A study of Mus musculus with 9 samples.

Results

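The endoplasmic reticulum (ER) takes up calcium through the SERCA pumps, encoded by Atp2a1, Atp2a2 and Atp2a3, and gives it back to the cytosol through the ryanodine receptors, Ryr1, Ryr2 and Ryr3, and the IP3 receptors, Itpr1, Itpr2 and Itpr3. These 9 genes were taken by name, as the families of pumps and channels, and were matched to array probes that carry exactly 1 gene symbol. Of the 9 genes, 8 had such a probe, 10 probes in all, among 22180 genes so measured. Itpr1 was not analysed here. Ryr1 and Itpr3 had 2 probes each, and the brighter of them was taken as the main value. No filter on low signal was applied, so all 8 genes entered every test.

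A SERCA pump spends ATP to move calcium against its gradient into the ER lumen, where it is held by low-affinity binding proteins such as calreticulin. Ryanodine receptors are very large channels opened by cytosolic calcium itself, and IP3 receptors open when phospholipase C has made inositol trisphosphate (IP3) at the plasma membrane. In glucagon-secreting alpha cells, exocytosis is triggered by cytosolic calcium, and ER stores shape that signal and also serve protein folding.

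The RNA came from alpha TC6 cells, a mouse line that makes glucagon. The 3 groups were control cells, alphaIRS1KD cells and alphaIRS2KD cells, with 3 Affymetrix gene arrays each. All 3 groups had been infected with lentivirus carrying a short hairpin RNA and selected with puromycin. The hairpin was nonsilencing in control, and was directed at insulin receptor substrate 1 (Irs1) in alphaIRS1KD and at insulin receptor substrate 2 (Irs2) in alphaIRS2KD. Each knockdown was 1 stable line, so knockdown and line cannot be told apart. Nothing in the sources says that the arrays of a group came from separate cultures, and p-values then measure only the spread between these samples, which may be technical. Within a line, less RNA of a gene per cell and fewer cells that express it cannot be told apart.

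Signals are log2 values, so a difference of 1 is a factor of 2. Each probe has its own brightness, and levels of different genes were not set against each other. As a mark of dim probes, the 95th percentile of the mean signal of 1105 olfactory receptor genes, which are silent in most tissues, was used (4.93). Array medians over all probes lay between 5.03 and 5.11, above this mark, so a signal above it does not by itself show expression. Irs1 was at 8.06, 8.09 and 8.07 in control, at 7.16, 7.12 and 7.22 in alphaIRS1KD and at 8.10, 8.16 and 8.01 in alphaIRS2KD. Its difference between alphaIRS1KD and control was -0.91 ± 0.06 (SE, adjusted p = 3.2e-05). Irs2 was at 10.72, 10.64 and 10.58 in control, at 10.44, 10.56 and 10.51 in alphaIRS1KD and at 10.09, 10.02 and 10.11 in alphaIRS2KD, where it was lower than in control by -0.58 ± 0.06 (SE, adjusted p = 0.0017). Each targeted gene was lowest in its own line. All 9 measured alpha cell markers were above the mark of dim probes, with glucagon (Gcg) between 13.21 and 13.25. Of 9 measured beta cell markers 7 were above it as well, among them the zinc transporter Slc30a8 with a mean of 10.98, while insulin (Ins2) was not and lay between 3.90 and 5.09.

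Of the 8 measured calcium pumps and release channels, only Ryr2, the ryanodine receptor best known from heart and brain, passed the test in limma. It was lower in alphaIRS1KD than in both other groups, by 1.40-fold against control and by 1.39-fold against alphaIRS2KD, and differed from control by -0.01 in alphaIRS2KD. Its alphaIRS1KD signals lay below the mark of dim probes, so the size of the fold is uncertain. The other 7 measured genes passed the test in no comparison, and the methods' t-test did not call Ryr2 after adjustment. The widely expressed SERCA pump Atp2a2 was bright and nearly level on all 9 arrays, whereas the means of the other 7 genes over all arrays lay between 4.21 and 5.49, close to or below the mark of dim probes.

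The 250 bases of DNA before the start of Ryr2 are shown first because its RNA differed between the lines. Those of Itpr2 are shown because it was the only measured release channel whose alphaIRS1KD arrays all lay above the control arrays. Itpr2 did not pass the test, and arrays did not overlap for 25.5% of all genes in that comparison. They are RefSeq sequences of build GRCm38.p6, at chr13:12106946-12107195 for Ryr2 and chr6:146502224-146502473 for Itpr2, both on the minus strand and read 5′ to 3′ towards the gene. Capitals mark the GC box, GGGCGG, on either strand, a motif bound by Sp1 and related factors.
Ryr2: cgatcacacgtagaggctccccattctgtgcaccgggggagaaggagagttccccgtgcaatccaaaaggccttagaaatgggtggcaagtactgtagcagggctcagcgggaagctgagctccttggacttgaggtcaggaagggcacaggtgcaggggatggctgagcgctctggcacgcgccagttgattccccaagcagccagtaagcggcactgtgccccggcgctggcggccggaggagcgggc
Itpr2: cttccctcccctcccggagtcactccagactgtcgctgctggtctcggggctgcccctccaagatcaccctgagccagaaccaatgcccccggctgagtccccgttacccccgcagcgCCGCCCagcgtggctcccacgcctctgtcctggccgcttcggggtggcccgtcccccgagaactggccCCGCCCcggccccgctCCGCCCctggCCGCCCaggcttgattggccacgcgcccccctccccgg

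Of the 9 genes, 6 had such a window (not Ryr3, Itpr1 or Atp2a2). Its share of G and C was 63.2% for Ryr2 and 74.4% for Itpr2, against a median of 52.4% over 32851 promoter windows. The GC box occurred in Ryr1, Itpr2, Itpr3 and Atp2a3, and in 32.7% of all windows, but not in those of Ryr2 and Atp2a1. Further motifs searched on both strands were the FOXO core GTAAACA, held by 3.17% of all windows, the cyclic AMP response element TGACGTCA (CRE), held by 1.55%, and the ER stress response element (ERSE), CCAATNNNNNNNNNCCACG, held by 0.113%. None of these 3 was in the window of any of the 6 genes, which says only that these letters are not there.

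Among the ryanodine receptors, Ryr2 signals were 5.51, 5.24 and 5.31 in control, 4.90, 4.78 and 4.93 in alphaIRS1KD and 5.40, 5.28 and 5.36 in alphaIRS2KD. All 3 alphaIRS1KD arrays lay below the lowest of the other 6, and they also lay below the mark of dim probes, while the other 6 lay above it. Group means were 5.35 ± 0.14, 4.87 ± 0.08 and 5.35 ± 0.06 (SD, n = 3). The difference between alphaIRS1KD and control was -0.48 (95% interval -0.66 to -0.30, adjusted p = 0.0065), and that between alphaIRS1KD and alphaIRS2KD was also -0.48 (-0.65 to -0.30, adjusted p = 0.011). Between alphaIRS2KD and control the interval of the difference ran from -0.18 to 0.17 (adjusted p = 0.99). A fall of the size seen in alphaIRS1KD lies outside that interval. Ryr2 was called without any 1 of the 9 arrays, with differences from -0.54 to -0.41 against control and from -0.51 to -0.43 against alphaIRS2KD. The methods' t-test did not call it after adjustment over all genes (adjusted p = 0.091 and 0.077).

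Ryr1, the ryanodine receptor of skeletal muscle, had signals of 5.54, 5.45 and 5.34 in control, 5.53, 5.50 and 5.56 in alphaIRS1KD and 5.44, 5.36 and 5.69 in alphaIRS2KD. The 3 groups overlapped. Against control the difference was 0.09 in alphaIRS1KD (95% interval -0.12 to 0.29) and 0.05 in alphaIRS2KD (-0.15 to 0.26). Its second probe was at 4.95 on 7 arrays and at 4.84 and 5.02 on alphaIRS2KD replicates 1 and 3. Ryr3, an isoform found at low levels in many tissues, lay below the mark of dim probes on all 9 arrays. It was at 4.24, 4.16 and 4.29 in control, at 4.24 on every alphaIRS1KD array and at 3.96, 4.24 and 4.24 in alphaIRS2KD, with differences from control of 0.01 (-0.17 to 0.19) and -0.08 (-0.26 to 0.10).

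**Figure D1:**
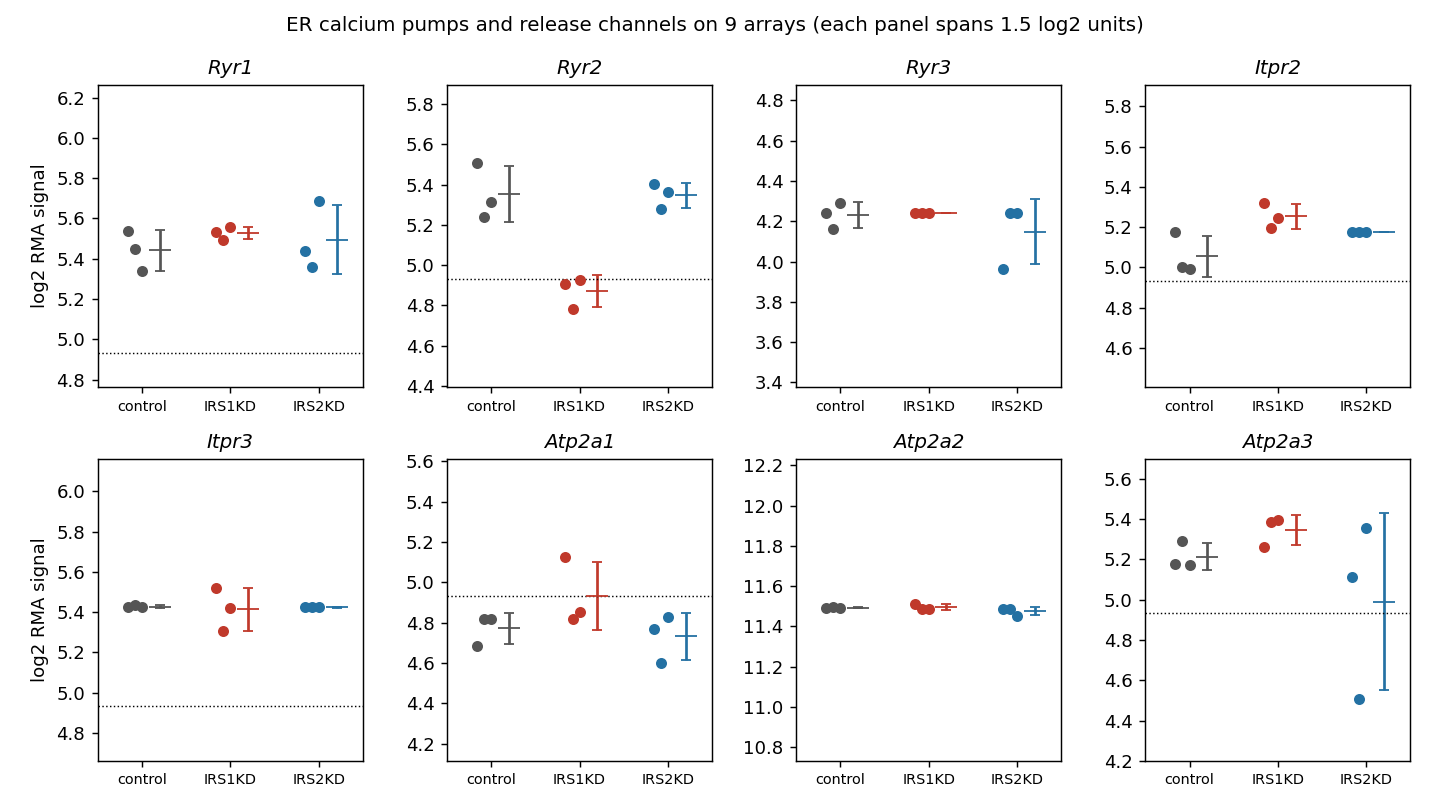
Log2 RMA signal of the 8 measured genes (y axis, every panel spanning 1.5 log2 units around its own middle) in control, alphaIRS1KD and alphaIRS2KD. Points are arrays, horizontal dashes with bars are means ± SD of 3 arrays, and the dotted line is the 95th percentile of olfactory receptor genes (4.93), drawn where it falls in the panel. The 3 Ryr2 points of alphaIRS1KD lie below all other Ryr2 points, and Atp2a3 has a single low array in alphaIRS2KD at 4.51.

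Of the IP3 receptors, Itpr2, a channel of high IP3 affinity, was at 5.17, 5.00 and 4.99 in control, 5.32, 5.20 and 5.25 in alphaIRS1KD and 5.17 on each alphaIRS2KD array. The alphaIRS1KD arrays were all above the other 6, with 5.20 against 5.17 at the nearest points. The difference from control was 0.20 (95% interval 0.06 to 0.34), with an unadjusted p of 0.012 in limma and an adjusted p of 0.12, so it did not pass. Against alphaIRS2KD it was 0.08 (-0.06 to 0.22, adjusted p = 0.61). Itpr3, the IP3 receptor typical of secretory epithelia, was at 5.42, 5.43 and 5.42 in control, 5.52, 5.30 and 5.42 in alphaIRS1KD and 5.43, 5.42 and 5.42 in alphaIRS2KD. Its differences were between -0.01 and -0.00 in the 3 comparisons, and their 95% intervals lay between -0.15 and 0.13. The second, dimmer probe of Itpr3 lay between 4.58 and 5.32 and gave 0.09 and 0.22 against control for alphaIRS1KD and alphaIRS2KD (adjusted p = 0.86 and 0.75 over all probes).

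Of the pumps, Atp2a2, which encodes SERCA2, the housekeeping pump, was at 11.49 on all 3 control arrays, at 11.51, 11.49 and 11.48 in alphaIRS1KD and at 11.49, 11.49 and 11.45 in alphaIRS2KD. The 95% interval of its difference from control was -0.09 to 0.10 in alphaIRS1KD and -0.11 to 0.08 in alphaIRS2KD, the narrowest of the 8 genes. Its alphaIRS2KD arrays did not overlap control, although the difference was -0.02 (adjusted p = 0.93). Atp2a1, the fast-twitch muscle pump SERCA1, was at 4.68, 4.82 and 4.82 in control, 5.13, 4.82 and 4.85 in alphaIRS1KD and 4.77, 4.60 and 4.83 in alphaIRS2KD. Only alphaIRS1KD replicate 1 was above the mark of dim probes, and the difference from control was 0.16 in alphaIRS1KD (-0.06 to 0.38) and -0.04 in alphaIRS2KD (-0.25 to 0.18).

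Atp2a3 encodes SERCA3, a pump known from blood cells, endothelium and islet cells. It was at 5.18, 5.29 and 5.17 in control, 5.26, 5.39 and 5.39 in alphaIRS1KD and 5.11, 4.51 and 5.35 in alphaIRS2KD. Replicate 2 of alphaIRS2KD stood apart, and the 3 groups overlapped. The difference between alphaIRS1KD and alphaIRS2KD was 0.36 (95% interval -0.05 to 0.76, adjusted p = 0.39), the widest interval of the 8 genes, and leaving out 1 array at a time it ran from 0.11 to 0.54. The lowest value was the one without alphaIRS2KD replicate 2.

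Counted over the 8 genes, alphaIRS1KD against control had 0 higher and 1 lower, where 2.98% of all 22180 genes were called higher and 3.68% lower (6.66% in either direction). Between alphaIRS1KD and alphaIRS2KD there were again 0 higher and 1 lower, where 1.71% of all genes were higher and 2.42% lower (4.13% in either direction). In alphaIRS2KD against control limma called 0 of the 8 genes, against 1.59% of all genes. An unadjusted p under 0.05 was found for 0 of the 8, against 10.8% of all genes. The methods' t-test also called 0 there. Median differences of the 8 genes were 0.05 and -0.01 against control in alphaIRS1KD and alphaIRS2KD, and 0.06 between the knockdowns, and those of all genes were 0.01, -0.00 and 0.01. Arrays did not overlap for 2, 1 and 2 of the 8 genes, against 25.5%, 13.7% and 18.4% of all genes. With 8 genes, 1 call is too few to set a share against the background, and the comparisons share their samples.

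**Figure D2:**
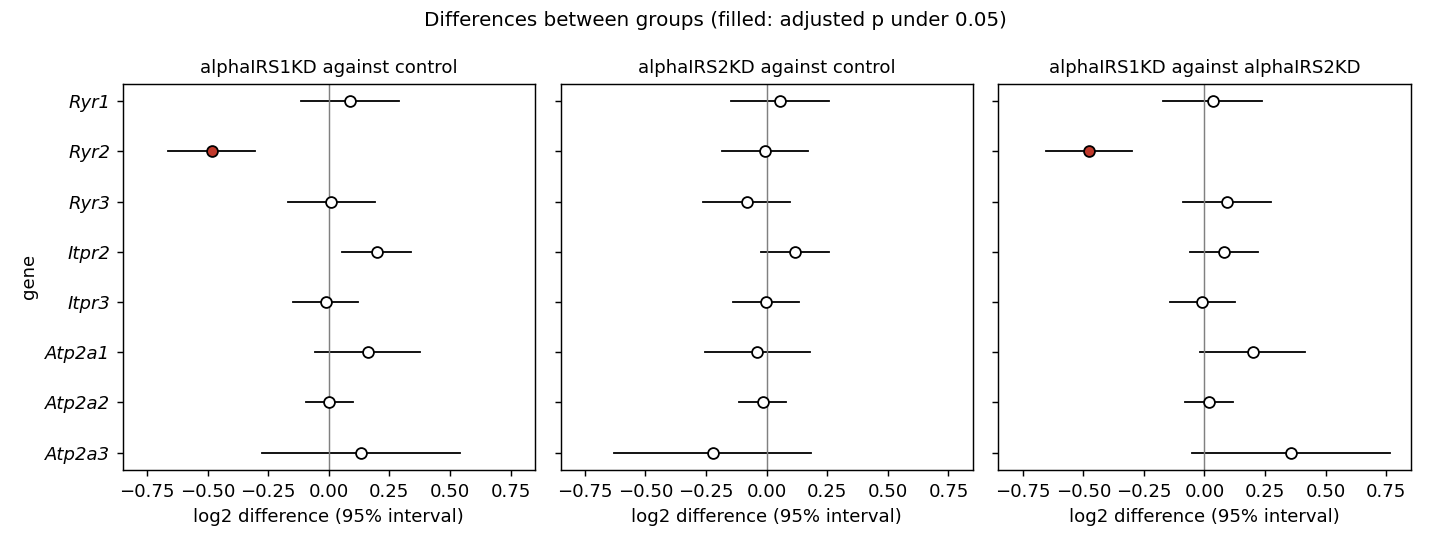
Difference in log2 signal (x axis) of the 8 measured genes (y axis) in the 3 comparisons, with the 95% interval from limma. Filled points passed an adjusted p of 0.05. Ryr2 lies at -0.48 on the left and on the right, and at -0.01 in the middle.

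Several of these genes had exactly the same value on more than 1 array. To 9 decimals, 5 of the 8 genes (62.5%) had the same value on at least 3 arrays, as did 31.9% of all genes. In 2 of the 8, a whole group was equal, namely Ryr3 in alphaIRS1KD and Itpr2 in alphaIRS2KD, as in 5.19% of all genes. The share with at least 3 equal arrays was 40.3% among the 5545 genes with the lowest mean signal, 43.6% among the next 5545 and 16.4% among the brightest 5545. Such equal values make the SD of a group 0, and what produced them was not tested. All 9 Ryr2 values were distinct.

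The genes most like Ryr2 were taken as those with the smallest root mean square difference from it over the 9 arrays, after each gene was centred on its own mean. They were Rbms3 (0.0596), an RNA-binding protein, Entpd7 (0.0636), a nucleotide hydrolase, Rrbp1 (0.0637), the ribosome-binding protein of the rough ER, Slc25a1 (0.0667), the mitochondrial citrate carrier, and Syvn1 (0.0722), the ubiquitin ligase of ER-associated degradation. In alphaIRS1KD against control they differed by -0.46, -0.56, -0.58, -0.42 and -0.50, as a result of how they were chosen. The measure also follows the spread within groups, as control replicate 1 was the highest of the 9 arrays for Ryr2 and for each of the 5 genes.

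**Figure D3:**
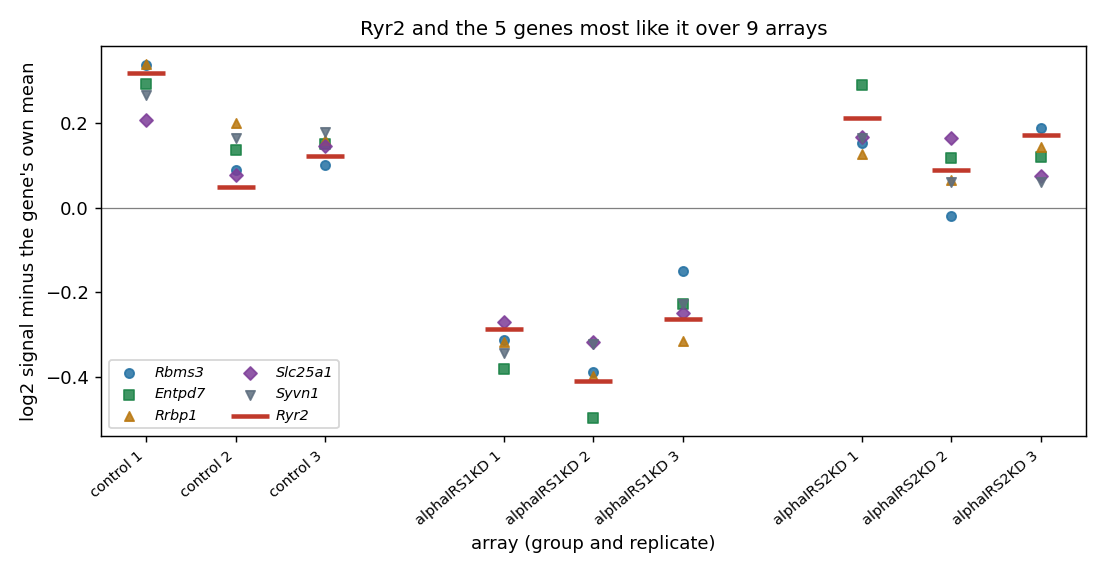
Log2 signal of Ryr2 (red dashes) and of the 5 genes with the smallest root mean square difference from it (symbols), each minus its own mean over the 9 arrays (y axis), by array (x axis). All 6 genes are below 0 on the 3 alphaIRS1KD arrays, and only Rbms3, on alphaIRS2KD replicate 2, is below 0 on another array.

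Around the pumps and channels, 136 genes were listed by role, of which 120 were measured. In alphaIRS1KD against control 5 rose and 14 fell, beside 2.98% and 3.68% of all genes, and the total of 19 came down to 10 without alphaIRS1KD replicate 1. In alphaIRS2KD against control Rcn3 alone changed, beside 1.59% of all genes, and other settings called up to 5 after adjustment at 0.05. Between alphaIRS1KD and alphaIRS2KD 1 was higher and 9 were lower, beside 1.71% and 2.42% of all genes, and 5 remained without alphaIRS2KD replicate 2. Against control, 10 of the 19 calls held whichever array was left out, those of Akap6, Erlin1, Jph3, Nucb1, Nucb2, Plcb1, Rcn3, S100a1, Tmbim1 and Tmbim4.

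Of 16 measured calcium-binding proteins of the ER lumen and secretory pathway, 6 fell in alphaIRS1KD against control and 0 rose, beside 3.68% and 2.98% of all genes. Their median difference was -0.13 (0.01 over all genes). Without control replicate 2 or alphaIRS1KD replicate 1, 3 of the 6 were called, Nucb1, Nucb2 and Rcn3. The count was 4 without control replicate 1, control replicate 3, alphaIRS1KD replicate 2 or alphaIRS1KD replicate 3. Rcn3, a reticulocalbin of the ER lumen, was at 9.82, 9.81 and 9.79 in control, 7.81, 7.68 and 7.89 in alphaIRS1KD and 8.78, 8.67 and 8.68 in alphaIRS2KD. The 3 groups were fully separated, with control highest. Rcn3 fell by 2.01 on the log2 scale in alphaIRS1KD (adjusted p = 1.2e-06) and by 1.10 in alphaIRS2KD (adjusted p = 0.00013). Rcn1, its relative, fell by 0.85, and the nucleobindins Nucb2 and Nucb1, calcium-binding proteins of the secretory pathway, fell by 0.69 and 0.55. Sdf4, a Golgi calcium-binding protein, fell by 0.30.

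Calr encodes calreticulin, the main calcium buffer of the ER lumen. It was at 11.78, 11.81 and 11.83 in control, 11.51, 11.53 and 11.58 in alphaIRS1KD and 11.75, 11.88 and 11.80 in alphaIRS2KD. The alphaIRS1KD arrays were below the other 6, and the difference was -0.27 against control (adjusted p = 0.016) and -0.27 against alphaIRS2KD (adjusted p = 0.024). Calr lost its call against control after median centring and without control replicate 2 or 3 or alphaIRS1KD replicate 1 or 2. Between alphaIRS1KD and alphaIRS2KD, 3 of the 16 were called, all lower, beside 2.42% of all genes lower and 1.71% higher. They were Rcn3, Nucb2 and Calr. The call of Calr there held in 5 of the 9 fits with 1 array left out. Calsequestrins Casq1 and Casq2, the calcium buffers of muscle stores, had differences of 0.13 and 0.10 against control (adjusted p = 0.70 and 0.56).

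The window before Calr is shown because it holds the ERSE. Of the 17 listed genes 16 had windows, 20 in all, and those of Calr, Canx, Hsp90b1 and Hspa5 held it. It lies at chr8:84846932-84847181 of GRCm38.p6 on the minus strand. Capitals mark the outer letters of the match, which runs on the opposite strand.
Calr: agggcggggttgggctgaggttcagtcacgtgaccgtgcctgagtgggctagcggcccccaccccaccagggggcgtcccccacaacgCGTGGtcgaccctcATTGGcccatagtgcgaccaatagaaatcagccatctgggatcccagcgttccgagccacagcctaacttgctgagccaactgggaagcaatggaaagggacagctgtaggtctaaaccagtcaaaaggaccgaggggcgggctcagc

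Beside Calr, whose call was lost in the settings named above, the chaperone Hspa5 (BiP) differed from control by -0.21 in alphaIRS1KD (adjusted p = 0.056) and was called after quantile normalization, with a trended and robust prior, without the dimmest genes, with only the 2 groups in the fit, and without alphaIRS2KD replicate 2 or 3. Canx, calnexin, differed by -0.06 (adjusted p = 0.63) and Hsp90b1, GRP94, by -0.05 (adjusted p = 0.73). Rcn3, with the largest fall, had no ERSE in its window.

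Of 22 measured partners of the ryanodine receptors, 1 rose and 2 fell in alphaIRS1KD against control, beside 2.98% and 3.68% of all genes. Akap6, a scaffold that ties protein kinase A to Ryr2 in heart, was at 4.99, 4.88 and 4.83 in control, 3.95, 3.45 and 3.46 in alphaIRS1KD and 4.68, 4.68 and 4.45 in alphaIRS2KD. The alphaIRS1KD arrays lay far below the others, while the means of all 3 groups (4.90, 3.62 and 4.60) were below the mark of dim probes. Akap6 passed the test against control (adjusted p = 6e-04) and against alphaIRS2KD (adjusted p = 0.0039), but at such signals the size of its difference cannot be read as a fold. S100a1, a calcium sensor that binds ryanodine receptors and SERCA, differed by -0.43 from control (adjusted p = 0.010) and by -0.39 from alphaIRS2KD (adjusted p = 0.024). Its call against alphaIRS2KD held in 5 of the 9 fits with 1 array left out. That call was lost with all probes in the adjustment and with only the 2 groups in the fit. Jph3, a junctophilin that holds the ER near the plasma membrane, rose by 0.57 in alphaIRS1KD (adjusted p = 0.0086), and its difference from alphaIRS2KD was 0.27 (adjusted p = 0.22). In alphaIRS2KD, Jph3 differed from control by 0.31 (adjusted p = 0.26). Its control mean (4.87) was below the mark of dim probes, so the size of the rise is uncertain. The channel-stabilising Fkbp1a and Fkbp1b differed from control by -0.07 and -0.06 in alphaIRS1KD (adjusted p = 0.49 and 0.84).

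Of 17 measured partners of the IP3 receptors, 1 rose and 1 fell in alphaIRS1KD against control, beside 2.98% and 3.68% of all genes. Erlin1, part of the complex that sends active IP3 receptors to degradation, fell by 0.63 against control (adjusted p = 0.0022). It differed from alphaIRS2KD by -0.74 (adjusted p = 0.0015). Ncs1, a calcium sensor that binds IP3 receptors, rose by 0.27 (adjusted p = 0.030), a call that held in 3 of the 9 fits with 1 array left out. Of 25 genes of IP3 production and turnover, 3 rose in alphaIRS1KD against control and 0 fell, beside 2.98% and 3.68% of all genes. Plcb1, a phospholipase C driven by Gq-coupled receptors, was at 6.86, 6.80 and 6.73 in control, 7.63, 7.94 and 7.89 in alphaIRS1KD and 7.03, 6.93 and 7.01 in alphaIRS2KD. It rose by 1.02 against control (adjusted p = 0.00015) and was higher than in alphaIRS2KD by 0.83 (adjusted p = 0.00084). Plcl2, a catalytically inactive relative that binds IP3, rose by 0.28, and Plcg1, the phospholipase C of tyrosine kinase receptors, by 0.23. In alphaIRS2KD, Plcg1 differed from control by a similar 0.25 (adjusted p = 0.059 in limma). Between the knockdowns its difference was -0.01 (adjusted p = 0.92). Plcl2 and Plcg1 lost their calls without any 1 of the control or alphaIRS1KD arrays, and Plcb1 kept its call. Plcb4 was lower in alphaIRS1KD than in alphaIRS2KD (difference -0.26, adjusted p = 0.035), which held in 2 of the 9 such fits.

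Of 15 measured genes of ER calcium leak and overload, 5 fell in alphaIRS1KD against control and 0 rose, beside 3.68% and 2.98% of all genes. Without control replicate 1, alphaIRS1KD replicate 1 or alphaIRS1KD replicate 2, and with all probes in the adjustment, 2 were called, Tmbim1 and Tmbim4. Without control replicate 2, control replicate 3, alphaIRS1KD replicate 3 or alphaIRS2KD replicate 1, 3 were. The 5 were Tmbim1 (-0.49) and Tmbim4 (-0.39), of the Bax inhibitor family of membrane proteins, and Sec61b (-0.46), Sec61g (-0.41) and Sec61a1 (-0.20), the subunits of the protein translocon, through which calcium can leak. Tmbim6, of the same family as Tmbim1 and Tmbim4, differed from control by 0.01 (adjusted p = 0.93). Between the knockdowns, Tmbim1 and Tmbim4 were also lower in alphaIRS1KD, by -0.27 and -0.30, beside 2.42% of all genes lower. These calls held in 2 and 5 of the 9 fits with 1 array left out. No gene passed in any comparison among 3 measured SERCA regulators, 6 genes of cyclic ADP-ribose and NAADP release and 17 of ER to mitochondria calcium transfer. In limma the counts at an unadjusted p under 0.05 were 0 in each of these lists and comparisons, except for 1 gene of calcium transfer in alphaIRS2KD against control. Over all genes the shares with such a p were 17.9% and 10.8% for alphaIRS1KD and alphaIRS2KD against control, and 15.8% between the knockdowns. Phospholamban (Pln) and sarcolipin (Sln), the small membrane inhibitors of SERCA, differed from control by 0.06 and 0.07 in alphaIRS1KD (adjusted p = 0.81 and 0.86).

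**Figure D4:**
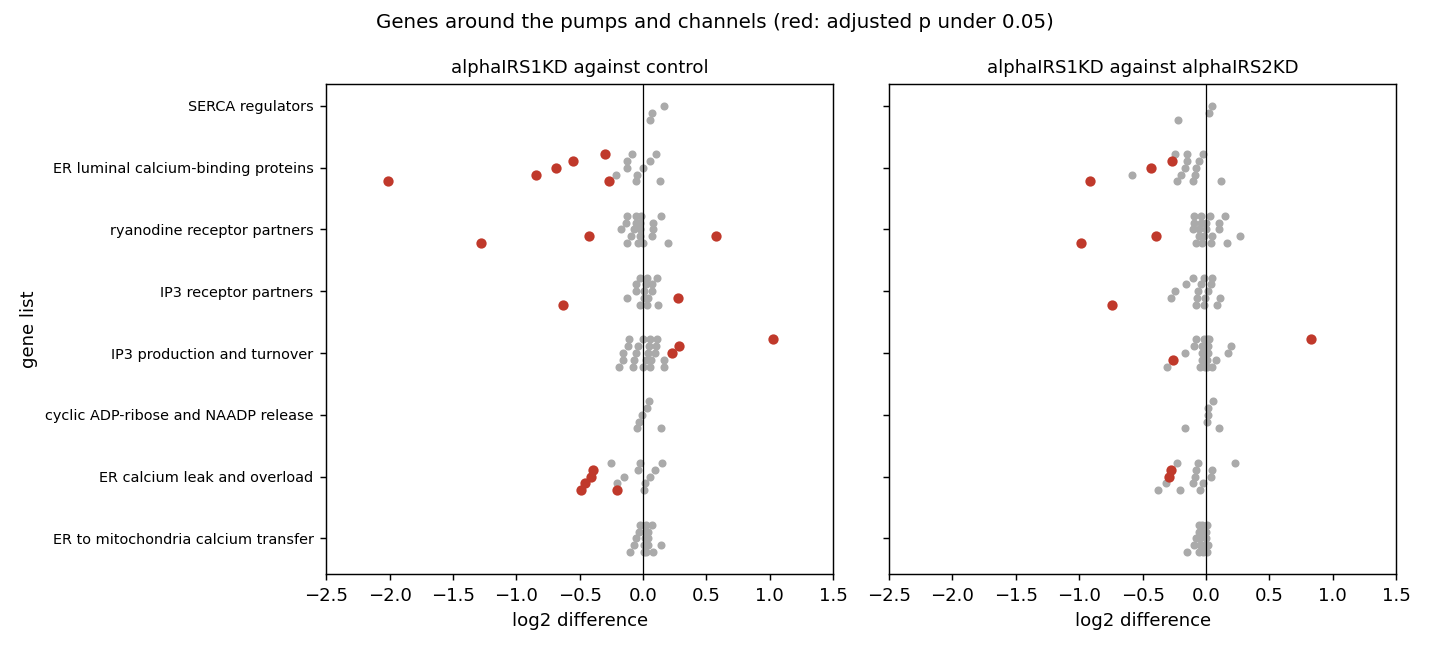
Difference in log2 signal (x axis) of each measured gene in 8 lists (y axis, genes spread vertically for legibility), for alphaIRS1KD against control and against alphaIRS2KD. Red points passed an adjusted p of 0.05. On the left, 14 red points lie below 0 and 5 above, with Rcn3 farthest left at -2.01 and Plcb1 farthest right at 1.02.

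Since Ryr1 and Atp2a1 mark muscle and Ryr2 heart and brain, markers of those cells were read as well. Of 16 muscle markers, 10 were above the mark of dim probes. That mark lay below the median of every array, so this does not show that they are expressed. The mean signal of the 16 per array was 5.01 to 5.09 in control, 5.06 to 5.11 in alphaIRS1KD and 4.93 to 5.15 in alphaIRS2KD. Of 7 neuronal markers, 6 were above it, and their mean was 8.09 to 8.17 in control, 8.00 to 8.07 in alphaIRS1KD and 8.07 to 8.18 in alphaIRS2KD, the lowest in the group where Ryr2 was lowest. Of these 7, 0 passed against control in limma. In alphaIRS1KD 2 had an unadjusted p under 0.05, beside 17.9% of all genes. Between the knockdowns 1 was lower in alphaIRS1KD, beside 2.42% of all genes. Any part of the neuronal markers in the Ryr2 difference was not tested. The 9 alpha cell markers had a mean of 10.32 to 10.33 in control, 10.40 to 10.41 in alphaIRS1KD and 10.36 to 10.38 in alphaIRS2KD. Of these, 3 rose and 1 fell in alphaIRS1KD against control, beside 2.98% and 3.68% of all genes. At an unadjusted p under 0.05 in limma there were 7, beside 17.9% of all genes. Of the 16 muscle markers 1 rose, beside the same 2.98%. The part of the alpha cell and muscle markers in the Ryr2 difference was not tested either.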

How the data were processed

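RNA of control, alphaIRS1KD and alphaIRS2KD cells was hybridised to 3 arrays each. The authors ran RMA on the intensities (its version is not given in the sources used here) and deposited log2 values, corrected for background, normalized between arrays and summarised per probe. Equal values on several arrays were left as they are. Of 41345 probes, 23521 carry 1 gene symbol in GEO's platform annotation, 1820 several and 16004 none. The brightest probe per gene gave 22180 genes. Arrays have no read depth, and the number of them limits precision.

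For tests, limma 3.58.1 (R 4.3.3) was fitted to all 9 arrays with a mean per group, and p-values were adjusted by Benjamini-Hochberg across the 22180 genes of each comparison. A gene was called, or said to rise, fall or change, at an adjusted p under 0.05. The script was tested on simulated data. Alternatives were other thresholds, the methods' t-test (unpaired, 2-sided), a trended and robust prior, a replicate block, other scalings, a filter on dim genes, other uses of probes, 2 groups only and leaving out each array.

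The text names Irs1, Irs2, all 9 genes of the set, up to 3 called genes per list and comparison, and the 5 genes most like a called one. Other names (Nucb1, Sdf4, Sec61a1, Tmbim6, Hspa5, Canx, Hsp90b1, Casq1, Casq2, Fkbp1a, Fkbp1b, Pln, Sln, Gcg, Ins2, Slc30a8, Bcl2, Snap25, Map2, Nefl, Syn1, Rbfox3, Gad1, Slc17a7) were chosen after their values were seen. Members and lists were chosen with earlier results of these data known.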

Additional observations from a re-analysis of the deposited data

Results flagged for a closer look

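The difference between alphaIRS1KD and alphaIRS2KD, which is also the difference between their 2 changes from the shared control, passed an adjusted p of 0.05 in limma for Ryr2 and for 10 of the genes around the pumps and channels. For Ryr2 it was -0.48 (adjusted p = 0.011), with changes from control of -0.48 in alphaIRS1KD and -0.01 in alphaIRS2KD. For Rcn3 it was -0.92 (adjusted p = 0.00012), and both lines were below control, by -2.01 and -1.10. Akap6, below the mark of dim probes in every group mean, differed by -0.98. In the same direction Erlin1 differed by -0.74, Nucb2 by -0.43, S100a1 by -0.39, Tmbim4 by -0.30, Tmbim1 by -0.27, Calr by -0.27 and Plcb4 by -0.26. Plcb1 differed in the other direction, by 0.83. Groups of 3 arrays are too small for a test of single outlying arrays, so Atp2a3 on alphaIRS2KD replicate 2 was given as a value only.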

How the results depend on the processing

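For the 8 genes, 501 values were obtained under 21 alternatives, counting each left-out array as an alternative, and 497 kept their direction and their side of the threshold or, where neither value was called, stayed uncalled. Of the uncalled values, 21 changed sign, and 0 called values did. In alphaIRS1KD against control, the methods' t-test without adjustment called 2 of the 8 genes, Ryr2 and Itpr2, and after adjustment 0. In limma 2 of the 8 had an unadjusted p under 0.05, beside 17.9% of all genes. Between alphaIRS1KD and alphaIRS2KD, 0 were called at an adjusted p under 0.01 and 0 by the adjusted t-test. Ryr3 had no value where the dimmest 30% of genes were left out, since it is among them.

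Calls among the 120 genes around the pumps and channels were less stable. In alphaIRS1KD against control 19 were called, 9 at an adjusted p under 0.01, 12 with all probes in the adjustment and 10 to 20 when 1 array was left out. The count was 10 without alphaIRS1KD replicate 1, 11 without alphaIRS1KD replicate 2, 11 without control replicate 1 or 2, and 12 without control replicate 3. In alphaIRS2KD against control 1 was called, 4 at an adjusted p under 0.1, 17 by the t-test without adjustment, 5 with a trended and robust prior, 2 after quantile normalization (Rcn3 and Plcg1), 4 without the dimmest genes (with Bcl2 and Nucb2 as well) and 1 to 2 when 1 array was left out, with 2 without alphaIRS2KD replicate 3. Between alphaIRS1KD and alphaIRS2KD 10 were called, 5 at an adjusted p under 0.01, 28 by the t-test without adjustment and 1 after it, 5 with all probes, 5 with only the 2 groups in the fit and 5 to 12 when 1 array was left out. The lower counts of that last range were 6 without alphaIRS1KD replicate 1, 6 without alphaIRS2KD replicate 1 and 5 without alphaIRS2KD replicate 2. In limma, 17 and 27 of the 120 had an unadjusted p under 0.05 in alphaIRS2KD against control and between the knockdowns. Over all genes the shares in limma were 10.8% and 15.8%, and shares by the t-test were not counted. The causes of the changes in counts between settings were not tested.

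Same-numbered arrays did not deviate together (correlations of deviations from -0.08 to 0.02), and 1 of 9 arrays correlated best with its own number. These correlations cannot exclude that same-numbered arrays shared a culture or day, which the sources do not state. With the replicate number as a block, calls over all genes went from 1477 to 1134, from 352 to 218 and from 916 to 613 (alphaIRS1KD and then alphaIRS2KD against control, and last the knockdowns against each other), and the partners called in the last comparison from 10 to 5. The calls of the 8 genes were the same under the block, with 1, 0 and 1.

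Ryr3 and Atp2a1 had mean signals below the mark of dim probes, and Ryr2 did in alphaIRS1KD. The number of arrays, 3 a group, limits the precision.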
